A study of Homo sapiens with 12 samples.

Results

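The genes described here are the zinc finger genes of human chromosome 19 that were detected in HepG2, a hepatocellular carcinoma cell line. They were selected on counts: a member is a protein-coding gene of chromosome 19 in GENCODE 29 whose symbol is ZNF followed by a number, with a read count of 10 or more in at least 4 of the 12 libraries. This rule gave 205 members among 57500 genes counted, and 41 further ZNF genes of chromosome 19 stayed below the count floor. The libraries came from 3 groups of 4 replicates, which the study calls independent. WT were wild-type HepG2 cells, shTST were HepG2 cells in which TST was silenced with a short hairpin RNA plasmid, and overTST were HepG2 cells that carried a codon-optimised TST transgene under a CMV promoter, in a lentiviral vector with blasticidin selection. All 3 groups were kept for 24 h in normal culture medium. Its 400 µM glycine was the same for every group and was not an added treatment. The sources used here do not say that WT carried an empty vector, or whether the engineered lines were pools or clones. TST encodes thiosulfate sulfurtransferase, or rhodanese, a mitochondrial enzyme that detoxifies cyanide to thiocyanate. The comparisons ask which transcripts differ among WT and the lines made to lower or raise this enzyme.

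Zinc finger genes of this kind encode proteins with arrays of C2H2 fingers, each a short fold in which a pair of cysteines and a pair of histidines hold a zinc ion and a helix reads DNA bases. Many of them also carry a KRAB box, which binds TRIM28 and through it SETDB1, HP1 proteins and the NuRD complex, so that bound DNA, often a transposable element, becomes heterochromatin. Chromosome 19 holds most of the human KRAB zinc finger genes in tandem clusters that grew by duplication. To show what the members share, the first finger of the longest coding sequence is shown for the 3 members that were higher than WT in both engineered lines. Each is coding exon sequence from GENCODE 29 on GRCh38, written in the direction of the gene, and the capitals mark the codons of the zinc-binding cysteines and histidines. The finger of ZNF121 lies at chr19:9566615-9566677 on the minus strand, that of ZNF44 at chr19:12273598-12273660 on the minus strand, and that of ZNF8 at chr19:58294583-58294645 on the plus strand.
ZNF121: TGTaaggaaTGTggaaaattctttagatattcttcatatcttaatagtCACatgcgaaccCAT
ZNF44: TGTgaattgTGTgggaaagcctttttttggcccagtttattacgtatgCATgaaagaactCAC
ZNF8: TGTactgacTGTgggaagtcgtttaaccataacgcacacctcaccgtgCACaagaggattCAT
All 3 stretches are 63 bases long, and the spacing of the capital codons is the same in each.

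Promoter windows are shown for the same 3 members and for the member with the largest fall, among the named ones with a window, in each comparison, ZNF784 for shTST against WT and ZNF724 for overTST against WT and against shTST. They are up to 250 bases upstream of the RefSeq start (GRCh38.p14), cut back where the files place the start of the gene further upstream. The window of ZNF121 is chr19:9584534-9584754 (minus strand), that of ZNF44 chr19:12294888-12295133 (minus), that of ZNF8 chr19:58278705-58278950 (plus), that of ZNF784 chr19:55624602-55624816 (minus) and that of ZNF724 chr19:23250395-23250644 (minus). Capitals mark 3 kinds of promoter motif, searched on both strands without regard to overlaps. The GC box was searched as GGGCGG. The pentamer bound by the factor NF-Y was searched as its name, CCAAT. The TATA box was searched by the letters TATAAA.
ZNF121: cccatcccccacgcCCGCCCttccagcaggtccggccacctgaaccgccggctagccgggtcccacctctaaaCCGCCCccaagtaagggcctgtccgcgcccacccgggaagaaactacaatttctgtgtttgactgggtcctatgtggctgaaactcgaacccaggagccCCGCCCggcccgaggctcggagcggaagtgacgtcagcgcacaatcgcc
ZNF44: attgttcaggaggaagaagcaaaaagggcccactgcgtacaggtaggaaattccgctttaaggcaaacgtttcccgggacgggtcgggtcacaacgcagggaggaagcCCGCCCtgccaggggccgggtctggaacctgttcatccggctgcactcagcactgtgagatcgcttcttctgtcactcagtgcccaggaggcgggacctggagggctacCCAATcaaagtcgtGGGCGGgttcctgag
ZNF8: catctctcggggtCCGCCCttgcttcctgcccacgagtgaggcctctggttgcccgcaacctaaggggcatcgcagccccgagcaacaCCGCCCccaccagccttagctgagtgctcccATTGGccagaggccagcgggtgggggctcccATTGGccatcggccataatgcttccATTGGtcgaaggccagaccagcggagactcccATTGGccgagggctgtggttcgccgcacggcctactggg
ZNF784: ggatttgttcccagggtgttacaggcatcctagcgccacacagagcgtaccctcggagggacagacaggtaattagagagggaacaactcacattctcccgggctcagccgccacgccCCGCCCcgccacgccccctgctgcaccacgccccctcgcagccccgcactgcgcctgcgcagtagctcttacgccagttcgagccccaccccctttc
ZNF724: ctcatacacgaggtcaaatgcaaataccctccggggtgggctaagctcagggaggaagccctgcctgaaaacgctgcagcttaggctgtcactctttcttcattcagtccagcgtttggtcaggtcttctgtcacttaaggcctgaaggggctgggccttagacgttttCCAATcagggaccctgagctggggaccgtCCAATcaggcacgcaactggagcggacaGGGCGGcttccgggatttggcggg
The window of ZNF121 held 3 GC boxes and no CCAAT box, that of ZNF44 held 2 GC boxes and 1 CCAAT box, and that of ZNF8 held 2 GC boxes and 4 CCAAT boxes. That of ZNF784 held 1 GC box and no CCAAT box, and that of ZNF724 held 1 GC box and 2 CCAAT boxes. In the window of ZNF8, 104 bases are exonic in AC020915.3. Over the 183 members with a window in the table, 62.8% held a GC box, 50.8% a CCAAT box and 2.19% a TATA box. The shares were 42.6%, 32% and 10.7% of all 35116 promoters in the table, and 54.2%, 38.2% and 5.21% of 288 promoters of ZNF genes of other chromosomes. Members had passed the count floor and had 1 promoter each. The other sets were neither filtered on counts nor reduced to 1 promoter per gene. The median GC content of the full 250-base windows was 59.6% for members and 58% for all promoters. A match is a string of letters only, and binding was not measured.

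Total counts were 28866175 to 45120508 in WT, 27527854 to 33865386 in shTST and 22911380 to 27414142 in overTST. TST was measured at 47.2, 47.5, 52.8 and 48.5 CPM (counts scaled to library sizes normalised by TMM) in WT, 33, 33.6, 36.5 and 33.5 in shTST and 51.8, 56, 61.6 and 62.1 in overTST. Its log2 fold change was −0.52 (SE 0.055, adjusted p = 3.20e-06) with shTST and 0.24 (SE 0.062, adjusted p = 0.00384) with overTST, where the lowest library lies inside the WT range. The call with overTST was lost with counts corrected for length (log2 fold change 0.0965, adjusted p = 0.201), for length and GC (0.0835, 0.222) and with block and length correction (0.0944, 0.159). The codon-optimised transgene need not be counted as native TST. All 10 hepatocyte markers examined, such as ALB, APOB and HNF4A, had 2152 counts or more in every library, LUM and KDR had no count in any library, PTPRC and CD3E had at most 1 count, and LYZ, a leukocyte marker gene, had 35328 to 76147 counts and PDGFRB, a fibroblast marker gene, 373 to 1076 counts.

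The members were mostly low transcripts. Counts per kilobase of exonic length, scaled to the same total in every library (TPM), had a median of 1.83 over the 205 members when averaged over the 12 libraries, against 4.11 for 216 ZNF genes of other chromosomes past the same floor, 19.1 for 756 other protein-coding genes of chromosome 19 and 8.57 for all genes past the floor. In all, 57 members were under 1 TPM and 20 were over 10 TPM. ZNF787 was the highest at 118 TPM, with 105.0 to 131.6 TPM over the libraries, followed by ZNF428 at 52 TPM, ZNF358 at 48.8 TPM, ZNF581 at 32.4 TPM and ZNF114 at 26.6 TPM. The libraries of ZNF428 (46.6 to 56.1 TPM) and ZNF358 (40.5 to 60.5 TPM) overlap, so these neighbours in the order do not separate. The lowest member was ZNF568 at 0.163 TPM. Together the members took 0.138% to 0.154% of the counts of a library, or 32516 to 68669 counts, and counting error is therefore large for many of them.

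At the count floor, ZNF404 (2 to 17 counts), ZNF491 (4 to 22) and ZNF586 (7 to 27) were just inside, and ZNF709 (5 to 15), ZNF257 (0 to 16), ZNF665 (0 to 11) and ZNF671 (0 to 16) were just outside, the last 3 being tied. ZNF93, whose protein represses young LINE-1 elements, was below it with 3 to 11 counts. No member reached the floor only through 4 libraries of 1 group, and 190 members had 10 or more counts in all 12 libraries. The filter of edgeR left 204 members in each comparison and removed ZNF404.

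By sequence, the members were rich in fingers and poor in GC. The median exonic length was 4923 bases (ZNF888 551, ZNF431 14132), against 4982 in protein-coding genes past the floor and 5485 in ZNF genes of other chromosomes. The median GC content of the longest transcript was 42.4% (ZNF254 34.1%, ZNF865 71.1%), against 60.2% in other genes of chromosome 19, 45.3% in ZNF genes of other chromosomes and 49.05% in all genes past the floor. In translated coding sequences the median number of canonical C2H2 fingers was 12, with 31 in ZNF91 and none in ZNF738. A letter pattern for the KRAB box was found in 160 members and not in 45; the pattern misses divergent boxes. Of the 29 members with a GC content over 50%, 21 had no KRAB match. In position, the members formed 16 clusters separated by gaps of over 1000000 bases, and the 6 clusters of 20 or more members held 171 of them; the largest, chr19:55476332-58481230, held 51. Exons of other genes overlapped 117 members, with over 10% of the exonic bases shared on the same strand in 30 and on the opposite strand in 22, and counts of these are uncertain because the strand setting of the counting is not given in the sources used here. In addition, 7 members had over 10% of their 100-base stretches in a gene elsewhere, among them ZNF468 (99.1%) and ZNF417 (24.1%), and 159 had none.

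Of the 204 members tested against WT with edgeR's quasi-likelihood test, 11 were higher and 6 were lower at an adjusted p of 0.05 or less, which is 8.33% of them. Over all 14584 genes tested, 16.1% were called, 6.69% higher and 9.4% lower. The members are lower transcripts, with a median average log2 CPM of 1.99 against 4.14 over all genes, and at like level the shares lie closer. The members called were 4.17% of those under a log2 CPM of 1 (all genes 3.3%), 6.19% from 1 to 3 (8.76%), 13.5% from 3 to 5 (16.4%) and 50% of the 6 members at 5 or more (26.4%). In 14 of the 17 called members the 4 shTST libraries did not overlap the 4 WT libraries, and 48 members had an unadjusted p under 0.05. Neither was counted over all genes. A change of 1.5-fold was reached by 3 of the 17, against 175 of the 2346 called over all genes. In bulk RNA, fewer cells that express a gene and less of its RNA per cell cannot be told apart. The median log2 fold change of the members was 0.091, with 147 of 204 above 0, beside 0.004 over all genes, 0.059 over 215 ZNF genes of other chromosomes (17 higher and 6 lower) and −0.041 over 745 other protein-coding genes of chromosome 19 (42 higher and 108 lower).

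Of the 11 members that rose with shTST, 9 matched the KRAB pattern, as did 159 of all 204 members tested. ZNF430, a KRAB member of the pericentromeric cluster of the short arm (chr19:21020620-21060050), had 4.52, 3.91, 4.08 and 4.23 CPM in WT and 5.94, 5.59, 6.46 and 6.64 CPM in shTST, a log2 fold change of 0.56 (SE 0.11, adjusted p = 0.00107). Every shTST library of ZNF430 was above every WT library, and the overTST libraries (5.86, 4.11, 4.82 and 3.96 CPM) reached from the WT range into the shTST range. ZNF230, a KRAB member at chr19:44002948-44013926, rose from 1.78, 1.25, 1.73 and 1.59 CPM to 2.61, 2.24, 2.26 and 2.99 CPM, a log2 fold change of 0.68 (SE 0.17, adjusted p = 0.00832). ZNF528, with 15 fingers, rose from 1.81, 2.13, 1.77 and 1.84 CPM to 2.83, 2.71, 2.7 and 2.75 CPM, a log2 fold change of 0.53 (SE 0.15, adjusted p = 0.0153). In both genes the groups are apart, and these 3 members stayed past the threshold under all 18 alternative settings. ZNF780B, a long transcript of 9217 bases with 21 fingers, rose from 4, 2.9, 3.06 and 2.88 CPM to 4.15, 4.36, 5.62 and 4.05 CPM with a log2 fold change of 0.51 (SE 0.14, adjusted p = 0.0147). The highest WT library of ZNF780B lies just under the lowest shTST library, and the call was lost without shTST replicate 3 (adjusted p = 0.0765). ZNF682 had the largest rise among the members named by rule, from 0.615, 0.966, 0.815 and 0.859 CPM to 1.68, 0.972, 1.51 and 1.46 CPM, with a log2 fold change of 0.77 (SE 0.23, adjusted p = 0.0237). Its call is the least firm of the 5, since it was kept under 13 of 17 settings. The remaining higher members were ZNF577 (0.94, under 1 CPM in nearly all libraries), ZNF563 (0.37), ZNF260 (0.30) and the 3 described further on, ZNF8, ZNF121 and ZNF44. ZNF577, ZNF563 and ZNF260 are outside the rule for naming and were picked after their values were seen.

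The 6 members that fell with shTST were GC-rich. Of the 1371 genes called lower over all genes, 1007 had a GC content over 50%. ZNF628, ZNF358, ZNF580, ZNF784, ZNF444 and ZNF787 had a GC content of 57.8% to 70.4%, none matched the KRAB pattern, and 5 of the 6 lie in the most distal cluster of the long arm. ZNF628, with 16 fingers, had 20.1, 25.6, 21.8 and 23 CPM in WT and 14.4, 17.4, 17.3 and 18.6 CPM in shTST, and fell by a log2 fold change of −0.42 (SE 0.081, adjusted p = 0.00141). ZNF358 had 37, 40.1, 42.3 and 37.8 CPM in WT and 31.6, 32.9, 33.2 and 32.9 CPM in shTST (log2 fold change −0.27, SE 0.055, adjusted p = 0.00232). ZNF787, the most abundant member, went from 155, 173, 161 and 166 CPM to 139, 144, 150.3 and 145 CPM (log2 fold change −0.18, SE 0.044, adjusted p = 0.00781). In these 3 genes every shTST library was below every WT library, although the changes are small, and with the GC correction ZNF787 was no longer called (adjusted p = 0.423). ZNF580 changed by −0.25 and ZNF784 by −0.24, both without overlap. The call of ZNF580 was lost without shTST replicate 1 (adjusted p = 0.0555), and that of ZNF784 was kept under 11 of 18 settings, lost with the GC (0.174) and joint (0.144) corrections and without shTST replicate 1 or 4 or WT replicate 2, 3 or 4. ZNF444, a SCAN domain protein that binds the promoter of the scavenger receptor gene SCARF1, changed by −0.19 (SE 0.057, adjusted p = 0.0235) with overlapping groups, 57.8, 69.2, 69.3 and 66.6 CPM in WT and 56.4, 56, 61.7 and 55.5 CPM in shTST. Its call was kept under 10 of 18 settings, lost with the GC (0.065) and joint (0.101) corrections and without shTST replicate 1, 2 or 4 or WT replicate 2, 3 or 4. Part of the exons of ZNF358 (20.2%) and ZNF580 (15.1%) lie on other genes of the same strand. With counts corrected for GC content, 10 members were higher and 3 lower, beside 1003 and 1256 of all 14584 genes tested. Without shTST replicate 1 the numbers were 7 and 3, beside 644 and 869 of 14862.

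**Figure D1:**
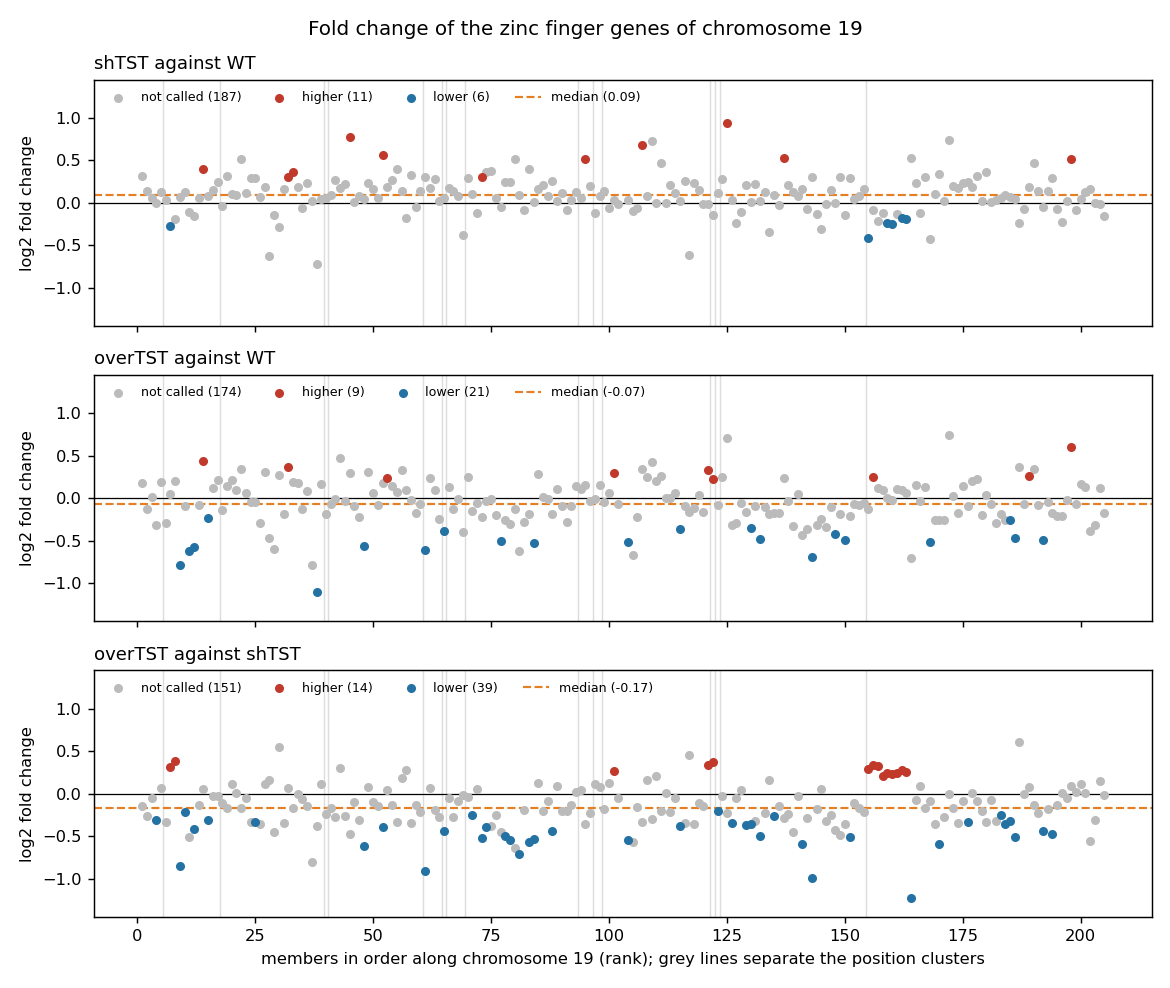
Log2 fold change of the members (vertical axis) in their order along chromosome 19 (horizontal axis, rank 1 to 205) in the 3 comparisons, with called members in red (higher) and blue (lower) and the median as a dashed line. Higher and lower members are spread over the clusters, except for a row of 9 red points at ranks 155 to 163 in the lowest panel.

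With TST overexpressed, more members were lower than higher. Of 204 tested, 9 were higher and 21 lower than WT, which is 14.7% of them, and 6 of these 30 reached 1.5-fold. Over all 14421 genes tested, 33.9% were called, 15.7% higher and 18.2% lower, and 516 of the 4893 called reached 1.5-fold. By level, the members called were 11.7% under a log2 CPM of 1 (all genes 9.62%), 10.6% from 1 to 3 (19.8%), 32.4% from 3 to 5 (37.8%) and 16.7% of the 6 at 5 or more (51.1%). The overTST and WT libraries did not overlap in 18 of the 30, and 51 members had an unadjusted p under 0.05, neither of which was counted over all genes. The median log2 fold change of the members was −0.067, with 80 of 204 above 0, beside 0.002 over all genes, −0.038 over ZNF genes of other chromosomes (16 higher and 19 lower of 213) and 0.072 over the other protein-coding genes of chromosome 19 (183 higher and 62 lower of 738).

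The members that fell with overTST were 18 with and 3 without the KRAB pattern, beside 159 with and 45 without it among all members tested. ZNF266, with 12 fingers (chr19:9412598-9435578), had 8.7, 8.79, 9.24 and 8.68 CPM in WT and 6.46, 4.96, 6.08 and 6.32 CPM in overTST, a log2 fold change of −0.57 (SE 0.1, adjusted p = 1.47e-04). The shTST libraries of ZNF266, at 8.37, 7.6, 8.72 and 7 CPM, were above every overTST library, and 1 of them was inside the WT range. ZNF776 (chr19:57746796-57758159) fell from 9.66, 10.5, 8.01 and 9.48 CPM to 6.98, 6.23, 7.66 and 6.41 CPM, a log2 fold change of −0.47 (SE 0.1, adjusted p = 0.0012). ZNF28, a KRAB gene of the cluster at 51571298 to 53580269, fell from 3.11, 3.25, 2.48 and 1.99 CPM to 1.53, 1.52, 1.78 and 1.96 CPM, a log2 fold change of −0.69 (SE 0.18, adjusted p = 0.00508). In all 3 the groups do not overlap and the call held under all 18 settings. ZNF841, with 20 fingers, changed by −0.48 (SE 0.16, adjusted p = 0.024) and lost the call without overTST replicate 2 (adjusted p = 0.105) and without overTST replicate 4. ZNF724 (−0.61), ZNF737 (−0.56), ZNF805 (−0.51) and ZNF347 (−0.42) also fell without overlap, at adjusted p between 0.0355 and 0.0484, and these calls held under 9, 11, 7 and 4 of 18 settings. Of the exonic bases of ZNF724, 44.8% lie on AC092329.3 on the same strand. ZNF490, named after its values were seen, had the largest change at −1.10 but only 6 to 32 counts a library. ZNF558, which represses the mitophagy gene SPATA18, changed by −0.78 (SE 0.24, adjusted p = 0.0137), with 1.94, 2.31, 3.06 and 1.66 CPM in WT and 1.42, 0.847, 0.908 and 2.05 CPM in overTST, and these groups overlap. Its call was lost in 3 of 18 settings, each leaving out 1 library. DESeq2 called 13 members lower and 9 higher, beside 2539 and 2237 over all genes. Without overTST replicates 2, 3 or 4 the lower members numbered 10, 12 and 13, beside 2236, 2199 and 2246 over all genes.

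Of the 9 members that rose with overTST, 3 were GC-rich genes without a KRAB match, a class that held 21 of the 204 members tested. ZNF428, the second most abundant member per kilobase, had 30.9, 30.4, 33.6 and 34 CPM in WT and 37.1, 40.2, 39.96 and 41.1 CPM in overTST, a log2 fold change of 0.30 (SE 0.062, adjusted p = 6.05e-04). Every overTST library of ZNF428 was above every WT library, while the shTST libraries (33, 34.4, 32.5 and 31.7 CPM) lay within or just above the WT range, and 27.6% of its exonic bases lie on SRRM5 on the opposite strand. ZNF296, whose mouse counterpart is a factor of pluripotent stem cells, had 11.1, 10.04, 10.6 and 10 CPM in WT and 11.9, 16.1, 12.6 and 12 CPM in overTST, a log2 fold change of 0.33 (SE 0.096, adjusted p = 0.00911). The call of ZNF296 was lost without overTST replicate 2 (adjusted p = 0.0686), the library above the others, and with counts corrected for length (0.168). ZNF579 rose by 0.25 (SE 0.077, adjusted p = 0.015), from 23.2, 28.9, 27.6 and 25.5 CPM to 30.04, 29.9, 29.2 and 36 CPM, and lost its call without overTST replicate 4 (adjusted p = 0.0925) and without WT replicate 1 (0.0727), and with the length correction (0.0516). The call of ZNF428 was lost with the length correction (0.0516) and the joint correction (0.0688). The others were ZNF714 (0.24), ZNF587B (0.27), ZNF114 (0.23), and the 3 that follow. Of these others, ZNF714 and ZNF587B are outside the rule for naming and were picked after their values were seen.

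ZNF121, ZNF44 and ZNF8 were higher than WT in both engineered lines, which share the WT libraries. No member was lower in both lines and none was called in opposite directions. The lists are short, with 11 higher and 6 lower members with shTST and 9 and 21 with overTST. These overlaps were not counted over all genes. ZNF121, a C2H2 protein without a KRAB match (chr19:9560353-9584533, minus strand), had 14.2, 16.3, 17.9 and 13.6 CPM in WT, 22.2, 17.6, 20.5 and 21.1 CPM in shTST and 21.5, 19.5, 21.8 and 21.4 CPM in overTST. One shTST library lies just under the top WT library, and all overTST libraries are above WT. The log2 fold changes of ZNF121 were 0.39 (SE 0.085, adjusted p = 0.00314) with shTST and 0.44 (SE 0.083, adjusted p = 2.19e-04) with overTST. ZNF44, a KRAB protein with 14 fingers, had 5.94, 5.78, 5.98 and 6.04 CPM in WT, 7.01, 7.34, 7.77 and 7.13 CPM in shTST and 8.51, 8.13, 6.71 and 7.32 CPM in overTST, so that both lines are above every WT library. Its log2 fold changes were 0.31 (SE 0.09, adjusted p = 0.0232) and 0.37 (SE 0.1, adjusted p = 0.00717). ZNF8, a KRAB protein with 7 fingers, had 3.04, 2.61, 2.72 and 3.37 CPM in WT, 3.61, 4.02, 4.17 and 4.88 CPM in shTST and 3.84, 6.18, 3.36 and 4.55 CPM in overTST. The shTST libraries of ZNF8 are above WT and the lowest overTST library is just inside the WT range, with log2 fold changes of 0.51 (SE 0.13, adjusted p = 0.0106) and 0.61 (SE 0.16, adjusted p = 0.00533). Between the engineered lines the 3 genes differed by 0.05 (SE 0.082, adjusted p = 0.691), 0.068 (SE 0.094, adjusted p = 0.626) and 0.10 (SE 0.15, adjusted p = 0.683), which did not pass the test. The call of ZNF44 with shTST was lost without shTST replicate 3 (adjusted p = 0.069), without WT replicate 2 (0.0545) and with no filter on low counts (0.0584). ZNF8 is named because it completes this group, a choice made after its values were seen.

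**Figure D2:**
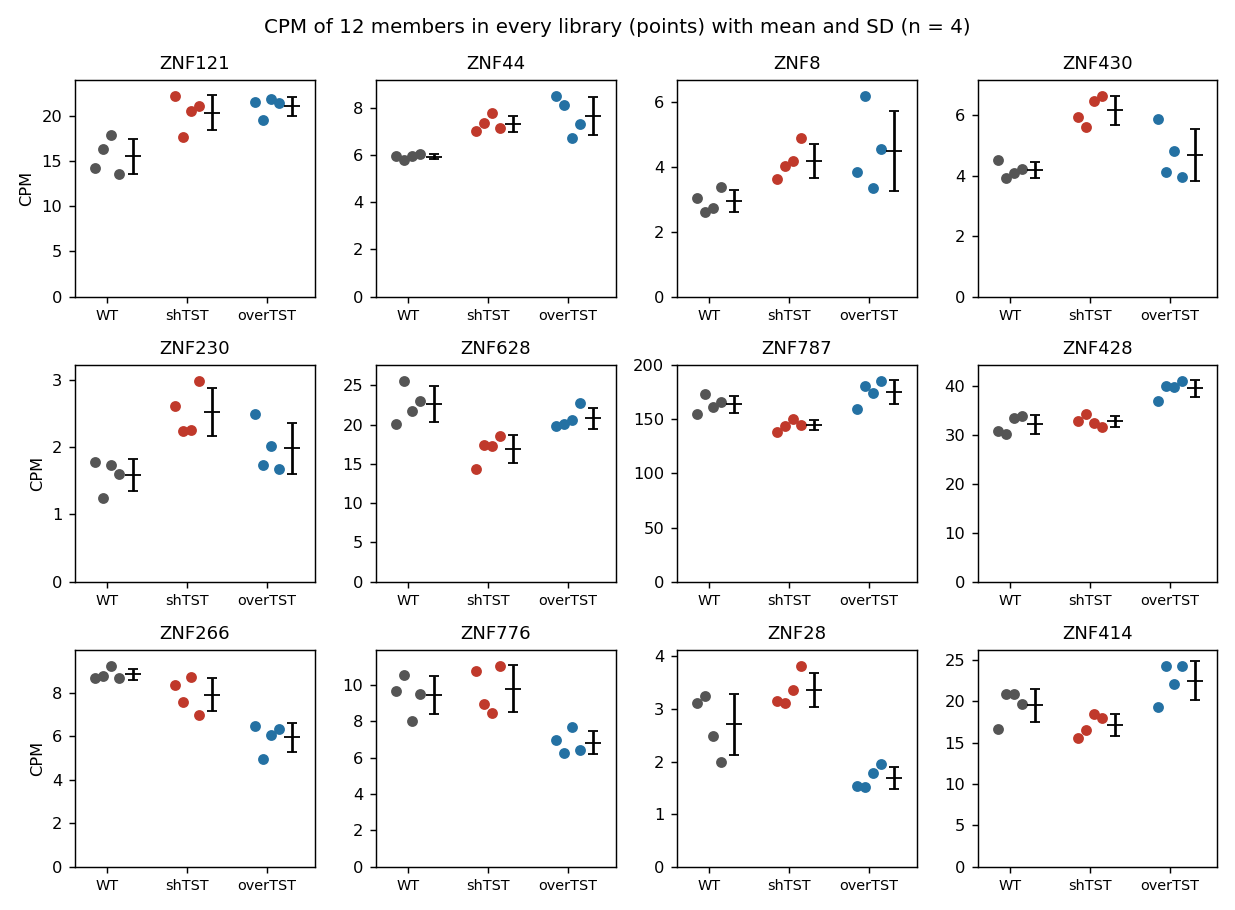
CPM (vertical axis from 0) of 12 members in the 4 libraries of each group (points), with the mean and SD beside them. ZNF121, ZNF44 and ZNF8 lie higher in both lines than in WT apart from the overlapping libraries given in the text, ZNF628 and ZNF787 are lowest in shTST, and ZNF266, ZNF776 and ZNF28 are lowest in overTST.

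Compared directly, overTST and shTST differed in more members than either line did from WT. Of 204 tested, 14 were higher and 39 lower in overTST, which is 26.0% of them, and 8 of the 53 reached 1.5-fold. Over all 14883 genes tested, 33.0% were called, 16.1% higher and 16.9% lower, and 435 of the 4907 called reached 1.5-fold. By level the order turns in these uncorrected counts. The members called were 10% under a log2 CPM of 1 (all genes 7.44%), 21.4% from 1 to 3 (19.9%), 52.8% from 3 to 5 (36.4%) and 83.3% of the 6 at 5 or more (52.6%). The libraries of the lines did not overlap in 38 of the 53, and 76 members had an unadjusted p under 0.05, neither of which was counted over all genes. The median log2 fold change was −0.17, with 55 of 204 above 0, beside −0.0008 over all genes, −0.082 over ZNF genes of other chromosomes (9 higher and 34 lower of 215) and 0.11 over other protein-coding genes of chromosome 19 (240 higher and 39 lower of 752). With counts corrected for GC content 5 members were higher and 21 lower, and the median was −0.091. Over all 14883 genes this correction left 2185 higher and 2140 lower. The lower members numbered 25 without overTST replicate 2 and also without shTST replicate 1, beside 2047 and 2073 over all genes.

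Among the members named by rule, ZNF28 had the largest fall in the direct comparison. It had 3.15, 3.12, 3.36 and 3.82 CPM in shTST against 1.53, 1.52, 1.78 and 1.96 CPM in overTST, a log2 fold change of −0.99 (SE 0.17, adjusted p = 9.80e-05), and the libraries are far apart. ZNF724 had 1.65, 1.61, 1.54 and 1.93 CPM in shTST and 1.04, 0.847, 0.869 and 0.773 CPM in overTST (log2 fold change −0.91, SE 0.2, adjusted p = 0.00114). ZNF558 had 2.15, 2.11, 2.23 and 2.89 CPM in shTST and 1.42, 0.847, 0.908 and 2.05 CPM in overTST (log2 fold change −0.86, SE 0.24, adjusted p = 0.00647), with 1 overTST library close under the lowest shTST library. These 3 calls held under all 18 settings, as did those of ZNF45 (log2 fold change −0.55, SE 0.14, adjusted p = 0.00303) and ZNF543 (log2 fold change −0.59, SE 0.16, adjusted p = 0.00698). ZNF611, a KRAB protein that binds SVA retrotransposons, changed by −0.59 (SE 0.18, adjusted p = 0.012), from 3.08, 2.65, 2.67 and 2.85 CPM to 2.05, 2.12, 1.07 and 2.23 CPM, and lost its call without overTST replicate 3 (adjusted p = 0.0663), the library far below the others, and with the joint length and GC correction (0.0638). ZNF737 (−0.61) and ZNF420 (−0.57) also fell, with calls kept under 15 and 13 of 18 settings. ZNF146, which is made almost wholly of fingers, had 42.7, 36.6, 34.2 and 37.1 CPM in shTST and 32.1, 28.9, 33.4 and 31.4 CPM in overTST and changed by −0.26 (SE 0.065, adjusted p = 0.00338) without overlap. Of the 21 members lower in overTST than in WT, 15 were also lower than in shTST, and both comparisons use the same overTST libraries. This overlap was not counted over all genes.

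Of the 14 members higher in overTST than in shTST, 13 had a GC content over 50%, as had 1688 of the 2395 called higher over all genes. Of the 14 members, 9 stand in an unbroken row of neighbouring members. The row runs over chr19:55476332-56160893 and holds ZNF628, ZNF579, ZNF524, ZNF865, ZNF784, ZNF580, ZNF581, ZNF787 and ZNF444, with a GC content of 57.8% to 71.1% and log2 fold changes of 0.21 to 0.33 (median 0.25). The longest row of lower members in this comparison held 4 genes, and no comparison with WT had a row of over 2. Against WT, 5 of the 9 were lower with shTST and none was higher (median −0.19), and 1 was higher with overTST (median 0.095). Among 8 other genes tested within the same interval, with a median GC content of 63.7%, 2 were higher and 1 lower in overTST than in shTST (median 0.094). All 9 stayed above 0 under each of the 18 alternatives, and the number past the threshold was 2 with the GC correction, 4 with the length correction and 6 to 9 with the others, apart from the joint correction for length and GC, which left 2. The median of the 9 shrank to 0.12 with the GC correction and 0.073 with the joint correction. ZNF524, a protein that binds telomere repeats, went from 5.94, 6.46, 5.71 and 4.84 CPM in shTST to 7.46, 6.86, 6.83 and 7.64 CPM in overTST (log2 fold change 0.33, SE 0.1, adjusted p = 0.0163), and ZNF581 from 17.6, 18.2, 20.3 and 20.3 CPM to 22.3, 22.3, 23.1 and 22.9 CPM (log2 fold change 0.24, SE 0.066, adjusted p = 0.00547). ZNF580 and ZNF581 share exons, so their counts are not independent. Outside the row, ZNF414 had 15.5, 16.5, 18.4 and 18 CPM in shTST and 19.3, 24.2, 22.1 and 24.2 CPM in overTST (log2 fold change 0.39, SE 0.084, adjusted p = 9.25e-04), and ZNF114, the only higher member with a KRAB match, had 26.6, 31.4, 24.8 and 25.2 CPM and 31.5, 36.7, 39.5 and 32 CPM (log2 fold change 0.37, SE 0.077, adjusted p = 5.79e-04). The calls of ZNF414 and ZNF114 held under all 18 settings.

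**Figure D3:**
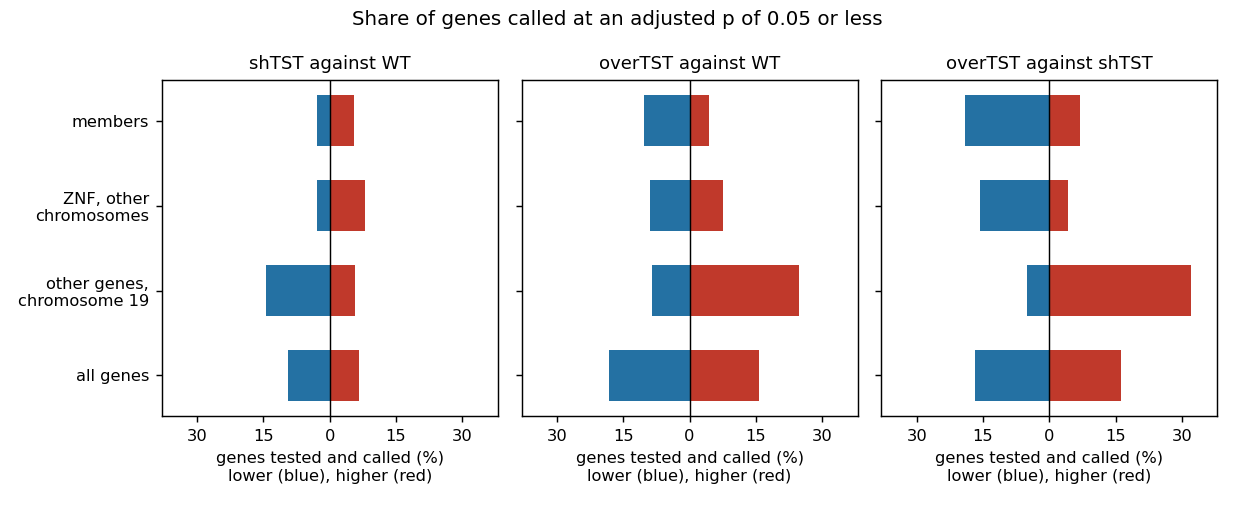
Share of tested genes called higher (red, to the right) and lower (blue, to the left) in percent, for the members, ZNF genes of other chromosomes, other protein-coding genes of chromosome 19 and all genes, in the 3 comparisons. Against WT the members have shorter bars than all genes, without regard to level (the shares by level are in the text), and in the direct comparison their lower bar (39 of 204) is longer than their higher bar (14 of 204).

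The medians of members of high and low GC content lay on opposite sides of 0. The KRAB classes had medians of the same sign up to 50% GC but differed above it. In shTST against WT the median log2 fold change was 0.18 over 54 members of up to 40% GC (5 higher, 0 lower), 0.10 over 121 members of over 40% to 50% (6 higher, 0 lower) and −0.12 over 29 members of over 50% (0 higher, 6 lower). All genes had medians of 0.0495, 0.036 and −0.044 in the same classes, so the members had medians of the same sign as all genes and further from 0 in each class. Of the members 9.26%, 4.96% and 20.7% were called in these classes, beside 11.7%, 14.2% and 19.1% of all genes. Over 50% GC, 295 of all genes were higher and 1007 lower. Within members of up to 50% GC, the median was 0.12 with the KRAB pattern (151 genes) and 0.13 without it (24 genes). In overTST against WT the 3 GC classes had medians of −0.075, −0.083 and 0.058, beside −0.077, −0.022 and 0.0399 over all genes. In the direct comparison they had −0.26, −0.20 and 0.12, beside −0.13, −0.058 and 0.084 over all genes. Within members of up to 50% GC the medians were −0.21 with and −0.23 without the pattern, and in overTST against WT −0.069 and −0.14. Over 50% GC, the 8 members with the pattern had medians of −0.010, −0.065 and −0.0086 in the 3 comparisons. The 21 members without it had −0.12, 0.066 and 0.24. Of this GC class, these 21 held all 6 lower calls with shTST and all 13 higher calls in the direct comparison. Across genes, Spearman's rho between log2 fold change and GC content was −0.317 over 204 members and −0.242 over 14539 genes with shTST, 0.077 and 0.147 with overTST, and 0.314 and 0.335 in the direct comparison; genes are not independent replicates.

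**Figure D4:**
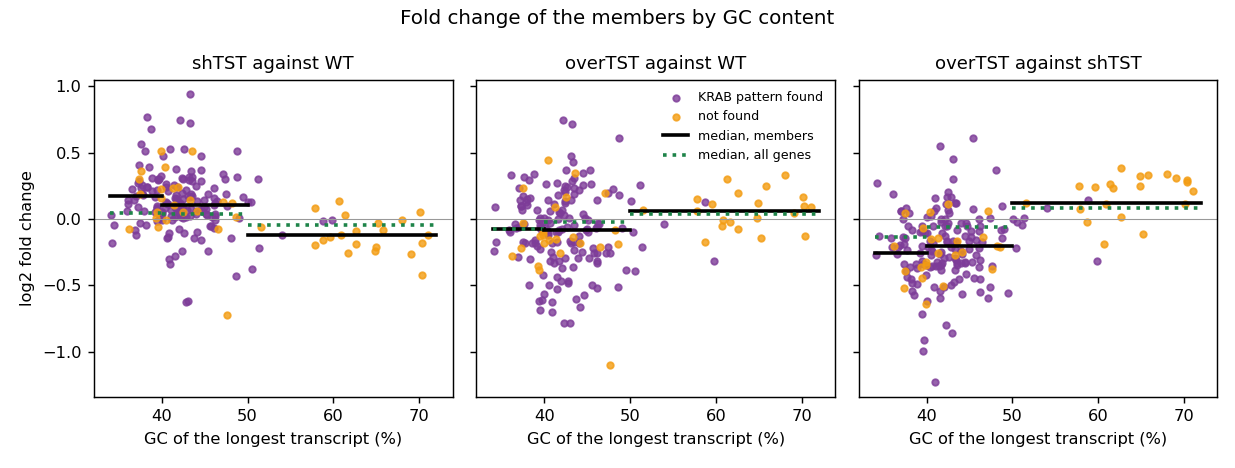
Log2 fold change of each member (vertical axis) against the GC content of its longest transcript in percent (horizontal axis), coloured by whether the KRAB pattern was found, with medians of 3 GC classes for members (solid) and all genes (dotted). The members over 50% GC lie lower than the others with shTST against WT (median −0.12) and higher in the direct comparison (median 0.12).

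Exonic length showed another pattern among the members than over all genes. In overTST against WT all genes went from a median of 0.15 at up to 3000 bases to −0.16 above 8000 bases, with a rho of −0.404 over 14421 genes. The members had medians of 0.0081 (25 genes), −0.13 (78 genes, over 3000 to 5000 bases), −0.079 (70 genes, over 5000 to 8000 bases) and 0.056 (31 genes), and a rho of 0.007. With shTST the members rose with length, from −0.0056 at up to 3000 bases to 0.17 above 8000 bases (rho 0.252), where all genes went from 0.029 to −0.0198 (rho −0.09). In the direct comparison rho with length was −0.181 over the members and −0.357 over all genes. Of the 26 members of up to 3000 bases, 9 had a GC content over 50%, so that length and GC content overlap among members in part.

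Of the 16 clusters, the 6 with 20 or more members are described. The cluster at 51571298 to 53580269, with 31 members of which 29 matched the KRAB pattern, had a median log2 fold change of −0.18 in overTST against WT, with 5 lower, none higher and only 4 of 31 above 0. In the same cluster 22 of 31 were above 0 with shTST (2 higher, 0 lower, median 0.082). The cluster at 36182060 to 37817300, with 24 members, had a median of −0.14 with overTST (2 lower, 0 higher, 5 above 0) and −0.25 in the direct comparison, where 9 were lower. The cluster at 19668796 to 21852125, with 20 members of a median GC of 37.6%, had 18 of 20 above 0 with shTST (2 higher, median 0.17) and a median of 0.0295 with overTST (1 higher, 1 lower). The cluster at 43525497 to 45076588, with 22 members tested, had medians of 0.033 with shTST and 0.005 with overTST. The cluster at 11483427 to 12640098, with 22 members, had a median above 0 in both comparisons with WT, 0.11 with shTST (2 higher, 0 lower) and 0.077 with overTST (1 higher, 1 lower, 12 of 22 above 0). The largest cluster, with 51 members, had medians of 0.044 with shTST (1 higher, 5 lower), −0.039 with overTST (3 higher, 4 lower) and −0.084 in the direct comparison (9 higher, 9 lower). These are counts over neighbours of like sequence, and no test was made between clusters.

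Library by library, the level of the members can be set beside the relation between deviation and GC content over all genes. The deviation of a gene is its log2 CPM less the WT mean. For a WT library this mean is that of the other WT libraries, which widens the WT values. The median deviation over the members was 0.16, 0.11, 0.039 and 0.10 in shTST replicates 1 to 4, −0.01, −0.083, −0.096 and −0.064 in overTST, and −0.039, 0.041, −0.026 and 0.02 in WT. All 4 shTST values are positive and all 4 overTST values negative, but overTST replicate 1 lies inside the WT range. So does shTST replicate 3, close under the highest WT value, though the WT values are widened by their baseline. Spearman's rho between deviation and GC over all genes was −0.354, −0.219, −0.056 and −0.176 in shTST, −0.053, 0.24, 0.102 and 0.184 in overTST, and −0.237, 0.071, 0.151 and −0.023 in WT. The share of counts on mitochondrially encoded genes was 6.84% to 8.66% in shTST, 10.8% to 11.7% in overTST and 6.91% to 12% in WT. Replicate 1 of shTST had both the highest member median and the lowest rho, while WT replicate 1 had a low rho and a member median under 0. The part of GC content or of mitochondrial RNA in the fold changes of the members was not tested beyond the corrected counts given above.

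**Figure D5:**
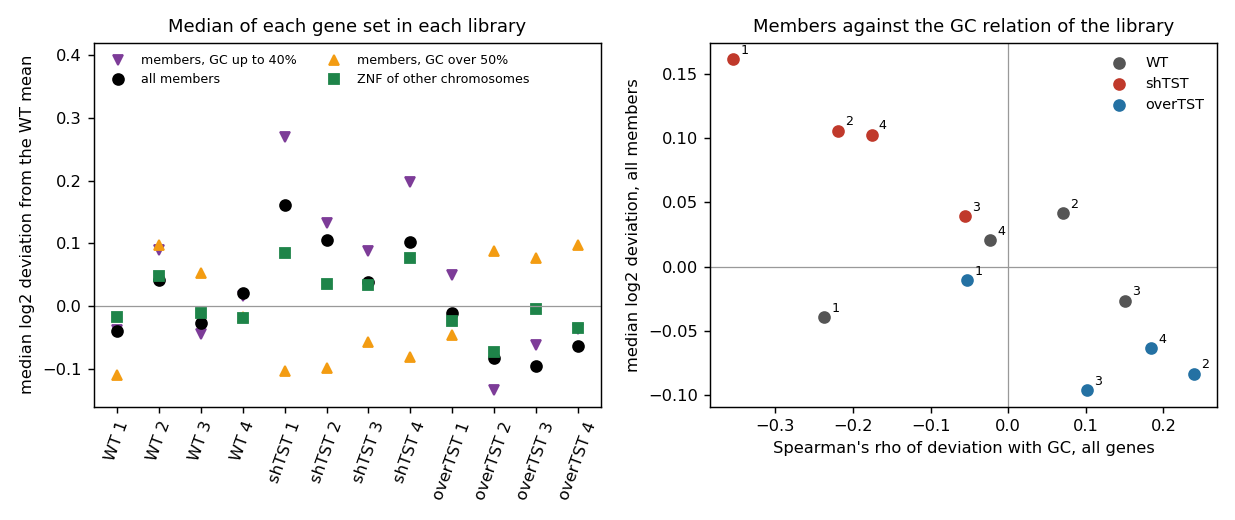
Left, median log2 deviation in each library for all members, members of up to 40% GC, members of over 50% GC and ZNF genes of other chromosomes. The deviation is from the WT mean, or for a WT library from the mean of the other WT libraries. Right, the median over all members against Spearman's rho of deviation with GC over all genes, 1 point a library. The shTST libraries lie at the upper left (rho −0.354 to −0.056) and 3 of the 4 overTST libraries at the lower right (rho 0.102 to 0.24).

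Of the members with a known role, 5 passed no test in the 3 comparisons. ZNF91, which silences SVA elements, had 7.78, 8.46, 7.91 and 9.11 CPM in WT, 9.98, 9.88, 9.48 and 8.2 CPM in shTST and 10.9, 7.84, 10.3 and 10.1 CPM in overTST, and differed from WT by 0.17 (SE 0.09, adjusted p = 0.198) and 0.24 (SE 0.1, adjusted p = 0.0793). ZNF274, which brings SETDB1 to the 3′ ends of zinc finger genes, had 14.7, 16.6, 15.3 and 13.2 CPM in WT, 13.7, 13.5, 11.9 and 12.5 CPM in shTST and 12.9, 12.3, 12.1 and 14.5 CPM in overTST, and differed by −0.22 (SE 0.079, adjusted p = 0.0616) and −0.21 (SE 0.086, adjusted p = 0.0605). The means of both lines lie under that of WT for ZNF274 but the libraries overlap. ZNF91 passed the test with overTST under 5 of 18 alternatives, among them the length correction (log2 fold change 0.39, adjusted p = 0.00441) and the GC correction (0.31, 0.0144), and in the direct comparison under 1, the joint correction (0.26, 0.0325). ZNF274 passed as lower under 5 of 18 with overTST and 2 of 18 with shTST, at an adjusted p of 0.0302 or more. ZNF331, an imprinted gene, differed by 0.16 with shTST and −0.06 with overTST. ZNF224, a repressor of the aldolase A gene, differed by 0.47 and 0.26, with 40.5% of its exonic bases on AC021092.1 on the opposite strand. ZNF568, whose mouse counterpart represses a placental promoter of Igf2, was near the floor of detection at 8 to 31 counts and differed by −0.085 and −0.28. The misses do not show that these genes stayed at the WT level.

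The genes of proteins that KRAB zinc fingers work with were examined as a list. Of 38 co-repressors, histone methyltransferases, readers, HUSH subunits, demethylases and SUMO proteins, 37 were tested, and 7 were higher and 4 lower with shTST, 12 higher and 14 lower with overTST, and 4 higher and 15 lower in overTST against shTST. Over all genes 16.1%, 33.9% and 33.0% were called in these comparisons, and 26.4%, 51.1% and 52.6% of genes at an average log2 CPM of 5 or more. The median log2 fold changes of the list were 0.064, −0.058 and −0.044. TRIM28, the scaffold that binds the KRAB box, had 756, 839.5, 838 and 792 CPM in WT, 674, 741, 783 and 712 CPM in shTST and 752, 867, 777 and 778 CPM in overTST, and did not pass the test in any comparison (−0.15 with shTST and −0.023 with overTST). SETDB1, the histone H3 lysine 9 methyltransferase that TRIM28 recruits, fell with overTST from 32.4, 31.4, 29.2 and 32.8 CPM to 27.6, 27.5, 26.6 and 27.5 CPM (log2 fold change −0.20, SE 0.063, adjusted p = 0.0142), with every overTST library under every WT library. UHRF1, which brings DNMT1 to hemimethylated DNA, rose in both lines, from 126, 129.7, 119 and 109 CPM in WT to 162, 149.8, 186 and 172 CPM in shTST (log2 fold change 0.47, SE 0.06, adjusted p = 2.89e-05) and 130.1, 137, 135 and 145 CPM in overTST (log2 fold change 0.18, SE 0.055, adjusted p = 0.0155).

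With overTST the called genes of the list included the following. The NuRD helicases CHD3 (−0.44) and CHD4 (−0.23), the methyltransferases EHMT1 (−0.31) and EHMT2 (−0.17), the demethylases KDM4A (−0.33), KDM4B (−0.23) and KDM4C (−0.32), DNMT1 (−0.18), NCOR1 (−0.12), SMARCAD1 (−0.34), TRIM24 (−0.13) and RIF1 (−0.49), a factor of replication timing, fell. The genes SUMO2 (0.19) and SUMO3 (0.13), the histone H3.3 genes H3F3A (0.35) and H3F3B (0.23), its chaperones ATRX (0.16) and DAXX (0.13), the HP1 gene CBX3 (0.17) and TRIM33 (0.22) rose. The overTST and WT libraries overlapped for ATRX, DAXX, TRIM33, SMARCAD1, KDM4C and TRIM24. Close to the threshold were ATRX (adjusted p = 0.0472), DAXX (0.0459), TRIM24 (0.0474), NCOR1 (0.0477) and SUMO3 (0.0492). The HUSH subunits went apart, with MPHOSPH8 higher (log2 fold change 0.44, SE 0.056, adjusted p = 2.94e-06), FAM208A lower (−0.20) and PPHLN1 at 0.13 (adjusted p = 0.105). With shTST, KDM4A (−0.26), KDM4B (−0.24), EHMT2 (−0.17) and SUMO2 (−0.20) fell, and CBX1 (0.17), CBX3 (0.16), H3F3A (0.20), SUMO3 (0.15) and KIAA1551 (0.25) rose beside UHRF1. The shTST and WT libraries overlapped for EHMT2 and for KIAA1551 (adjusted p = 0.0476). SUMO2 was the single gene of the list called in opposite directions, and in overTST against shTST it differed by 0.40 (SE 0.046, adjusted p = 9.45e-07). In the direct comparison ATF7IP (−0.33), the partner of SETDB1, CBX5 (−0.23) and SUV39H2 (−0.19) were lower as well. MORC2, HDAC1, HDAC2 and SUV39H1 passed no test, and NSD1 was not tested. The genes of the list differ in exonic length, up to 22128 bases in EHMT1, and over all genes long transcripts were lower with overTST, as given above; the part of length in these calls was not tested.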

How the data were processed

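RNA of 12 HepG2 libraries was sequenced. Per the submitters' processing notes the authors trimmed reads with Trimmomatic 0.36, aligned them to GRCh38 with STAR 2.5.2b and deposited raw counts per gene from featureCounts of Subread 1.5.2. The strand setting, the treatment of multimapping reads and the annotation release are not given in the sources used here. Symbols and gene models came from GENCODE 29, which held 56898 of 57500 identifiers. KRAB boxes and fingers were found in translated GENCODE 29 coding sequences, since no protein table was used. The members and lists were chosen with earlier results of these data known.

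The fits against WT used the 8 libraries compared, and the fit of overTST against shTST used all 12, with edgeR 4.0.16 (R 4.3.3) using filterByExpr, TMM, the quasi-likelihood test and Benjamini-Hochberg adjustment over all genes tested, with an adjusted p of 0.05 or less as a call. The SE was taken from the size of the log2 fold change over the root of the F statistic. Named members were TST, in each comparison the 5 higher and 8 lower with the largest change among called members whose groups did not overlap and whose mean log2 CPM was at least 0, the 5 highest per kilobase, genes of known role, those at the count floor and co-repressor genes called, some of which are not reported here by name although the counts of the list include them. Alternatives were DESeq2 1.42.0, other normalization, filters, corrections for length and GC content, a replicate block, other sets of libraries and leaving out each library. The p-values measure the spread between 4 libraries a group, which the study calls independent. They do not measure the spread between separately engineered lines, since the sources used here describe no such lines within a group. The fit was tested on simulated data.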

Additional observations from a re-analysis of the deposited data

Results flagged for a closer look

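In 126 groups of 4 libraries (42 named members in 3 groups), 10 held a library whose gap to the nearest other library, as a share of the range, exceeded Dixon's 95% critical value. Chance flags about 1 in 20 such groups. ZNF780B was at 3.998 CPM in WT replicate 1, against 2.883 to 3.056 CPM in the other WT libraries. ZNF296 was at 16.14 CPM in overTST replicate 2, against 11.87 to 12.56 CPM. ZNF579 was at 35.96 CPM in overTST replicate 4, against 29.22 to 30.04 CPM. The calls of ZNF296 and ZNF579 against WT were each lost without the library flagged here. Both were also lost with the length correction, and that of ZNF579 without WT replicate 1.

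ZNF611 was at 1.066 CPM in overTST replicate 3, against 2.053 to 2.227 CPM, and ZNF420 at 1.727 CPM in overTST replicate 4, against 2.202 to 2.29 CPM. ZNF404, a member at the count floor, was at 0.4479 CPM in overTST replicate 1, against 0.07897 to 0.1271 CPM. Among shTST libraries, ZNF224 was at 2.076 CPM in replicate 1, against 1.206 to 1.333 CPM, and ZNF45 at 7.537 CPM in replicate 2, against 6.012 to 6.261 CPM. ZNF444 was at 61.74 CPM in shTST replicate 3, against 55.49 to 56.43 CPM, and ZNF558 at 2.887 CPM in replicate 4, against 2.11 to 2.232 CPM. The causes were not tested.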

How the results depend on the processing

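Low counts limit members near the floor, such as ZNF404, and the cause of each change below was not tested. With the GC correction 3 members were lower with shTST, 5 were higher and 21 lower in overTST against shTST, and that median was −0.0909. Over all genes these counts were 1256, 2185 and 2140. With length and GC together the member counts were 3, 7 and 20, that median −0.1002, and the median with overTST −0.017. Over all genes the joint correction left 1264, 2044 and 1781. The length correction left 7 higher in overTST against shTST (all genes 2214). DESeq2 left 13 lower with overTST (all genes 2539). Leaving out 1 library gave 7 to 13 higher and 3 to 7 lower with shTST, 6 to 10 and 10 to 24 with overTST, and 11 to 14 and 25 to 42 in the direct comparison. Over all genes the ranges were 644 to 1021 and 869 to 1375, 1780 to 2433 and 2199 to 2830, and 1913 to 2537 and 2047 to 2728. The lowest counts came without shTST replicate 1 (7 and 3 with shTST, 25 lower in the direct comparison) and without overTST replicates 2 (10 lower with overTST, 25 in the direct comparison), 3 (12) and 4 (13). Libraries of the same replicate number correlated weakly (−0.053 to 0.080). Own numbers matched best for shTST replicates 1, 2 and 3 and overTST replicates 1 and 3 against WT, and for none in the direct comparison. Whether the numbers mark pairs was not settled, and the main fits did not use them. With the replicate block 11 and 8, 10 and 21, and 14 and 41 members were higher and lower in the 3 comparisons. Over all genes these were 1247 and 1733, 2408 and 2758, and 2556 and 2676. With block and length correction 17 members were higher with shTST, 14 with overTST and 9 in the direct comparison, beside 1406, 2217 and 2400 of all genes. Of the named members' values under alternatives, 2067 kept their side of the threshold, and 140 lost and 32 gained a call. The other 18, none of them called under either setting, were counted as reversed in sign. Among the 2067, further uncalled values crossed 0. With shTST, ZNF347 ran from −0.1581 to 0.1741 over the alternatives and ZNF568 from −0.2818 to 0.1669. With shTST those counted as reversed were ZNF296 (0.1068 with the GC and 0.0948 with the joint correction), ZNF579 (0.0203 and 0.0188) and ZNF45 (−0.0866 without WT replicate 2, up to 0.116 without other libraries). With overTST, under the length, the joint, and the block with length correction, they were ZNF358 (−0.0918, −0.0836 and −0.0953, and −0.0305 without overTST replicate 4, up to 0.1143 without other libraries), ZNF784 (−0.1305, −0.1404 and −0.1294), ZNF524 (−0.0554, −0.0609 and −0.0537) and ZNF581 (−0.0461, −0.065 and −0.0464).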

Other observations

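These 3 lower members outside the rule for naming were picked after their values were seen. ZNF507, which lies apart from the clusters (chr19:32345594-32387667) and has no KRAB match, had 18.3, 19.5, 18.9 and 17.9 CPM in WT, 21.1, 18.7, 18.6 and 19.3 CPM in shTST and 15.4, 13.5, 15.3 and 12.9 CPM in overTST. Its log2 fold change was −0.39 (SE 0.078, adjusted p = 4.65e-04) against WT and −0.44 (SE 0.073, adjusted p = 6.74e-05) against shTST, and the overTST libraries did not overlap either group. ZNF614 had 23.2, 27.7, 22.6 and 21 CPM in WT and 21, 18.1, 17.4 and 17.7 CPM in overTST (log2 fold change −0.35, SE 0.085, adjusted p = 0.00225), without overlap. ZNF561 had 17.8, 17.9, 17.4 and 18.8 CPM in WT and 15.1, 15.8, 16.9 and 13.4 CPM in overTST (log2 fold change −0.23, SE 0.078, adjusted p = 0.0253), also without overlap.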
